A study of Mus musculus with 2 samples.

Results

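The genes of phosphoinositide 3-kinase (PI3K), Akt and mTOR signalling were followed from mouse bone marrow monocytes to macrophages obtained from such monocytes with lysophosphatidic acid (LPA), a signalling lipid with G protein-coupled receptors of its own. The genes were taken by name from the table of all genes: a list of 46 was looked up, and all 46 were found among 47643. RNA sequencing of total RNA gave 1 library per group, both from wild-type C57BL/6 mice aged 6 weeks. The monocyte group is cells isolated from bone marrow, and the macrophage group is marrow monocytes differentiated in the presence of LPA. Neither group is a culture without LPA, so LPA, culture and differentiation cannot be told apart. How the monocytes were isolated, how long the culture lasted, how many mice were used and whether cells were pooled is unstated in the labels. The monocyte library held 12473180 unique exon reads and the macrophage library 16726342, and levels are given as CPM, the reads of a gene scaled to that total. Paired values name the monocyte library first. With 1 library per group no difference has a replicate check and no test was made. The 95% intervals given with fold changes are exact binomial (Clopper-Pearson) intervals for counting error only, not for the spread between mice or preparations. PCR copies cannot be told from separate molecules, so the intervals can be too narrow even for counting error.

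Class I PI3Ks are lipid kinases, made of a catalytic and a regulatory subunit, that phosphorylate a membrane phosphoinositide when receptors are engaged. Their product recruits the kinase Akt, which PDK1 and the mTOR complex that holds Rictor then activate, and lipid and protein phosphatases reverse these steps. Akt restrains FoxO transcription factors, GSK3 and the TSC complex, and release of the small GTPase Rheb from TSC switches on the mTOR complex that holds Raptor, which promotes translation and growth. In myeloid cells the pathway follows growth factor, chemokine, Fc and Toll-like receptors, and PI3K gamma is a form that answers G protein-coupled receptors.

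The labels were checked against defining markers. The 8 macrophage markers summed to 750.3 CPM in the monocyte library and 35117 CPM in the macrophage library, where all 8 were higher. Of 5 monocyte markers, Ly6c2, Ccr2, Cx3cr1 and F13a1 summed to 3964 and 198.4 CPM, while Csf1r, which macrophages also express, was at 593.6 and 1734 CPM. Markers of other cells were present in the monocyte library and mostly lower in the macrophage library: the sum of 8 neutrophil markers was 18600 and 5767 CPM (6 lower, with Mmp8 at 84.2 and 445.4 CPM and Cxcr2 at 18.3 and 167.5 CPM higher), of 4 primary granule genes 10393 and 126.9 CPM, of 7 eosinophil, basophil and mast cell markers 2347 and 366.8 CPM, of 3 progenitor genes 375.1 and 23.3 CPM, and of 6 erythroid genes 133.8 and 2.81 CPM, with Hbb-bs, Slc4a1, Car1 and Alas2 at 0 reads in macrophages. The sums were 31.7 and 13.9 CPM for 6 B lineage markers, 114.2 and 20.3 CPM for 6 T and NK markers, 193.2 and 88.5 CPM for 5 dendritic markers, and 1829 and 910.8 CPM for 6 stromal and endothelial markers. The T and NK sum was mostly Nkg7 in monocytes (106.9 CPM) and Cd4 in macrophages (18.2 CPM, against 5.13 CPM in monocytes). Within their lists Ncr1, Ccr3, Cpa3 and Col3a1 (0.641 and 10.9 CPM) were also higher in macrophages. The 4 megakaryocyte markers went the other way, at 94.4 and 408.0 CPM. Many signalling genes described here are made by several of these cells, the part of such cells in the values was not tested, and in bulk RNA fewer cells of a type and less RNA per cell cannot be told apart.

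Of the pathway genes with reads enough to compare, 34 of 42 lay within 2-fold between the libraries. Of the 8 that did not, 3 encode phosphatases that oppose PI3K and Akt, 2 are regulatory subunits of PI3K gamma, 2 are adaptors that feed PI3K and 1 is an inhibitor of mTOR. A level of at least 5 CPM in 1 library was reached by 42 of the 46 genes, and all 42 reached it in both. On the log2(CPM + 1) scale, 5 of the 42 (11.9%) passed 2-fold upward in macrophages, against 13.8% of the 10407 genes past the same floor, and 3 (7.14%) passed it downward, against 19.9%. In either direction 8 of the 42 (19.05%) passed 2-fold, against 33.8% of all genes. The median log2 ratio of the 42 was -0.11 and that of all genes -0.23, and the median absolute log2 ratio was 0.46 and 0.66. The genes at least 2-fold higher were Inppl1, Pik3ap1, Phlpp1, Pik3r5 and Akt1s1, and those at least 2-fold lower were Phlpp2, Irs2 and Pik3r6. After centring on the median of all genes, Pik3cb and Foxo3 also passed 2-fold upward and Pik3r6 no longer passed. Of all genes, 17.4% then passed upward and 14.6% downward. The plot of levels by role shows both libraries for each gene.

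**Figure D1:**
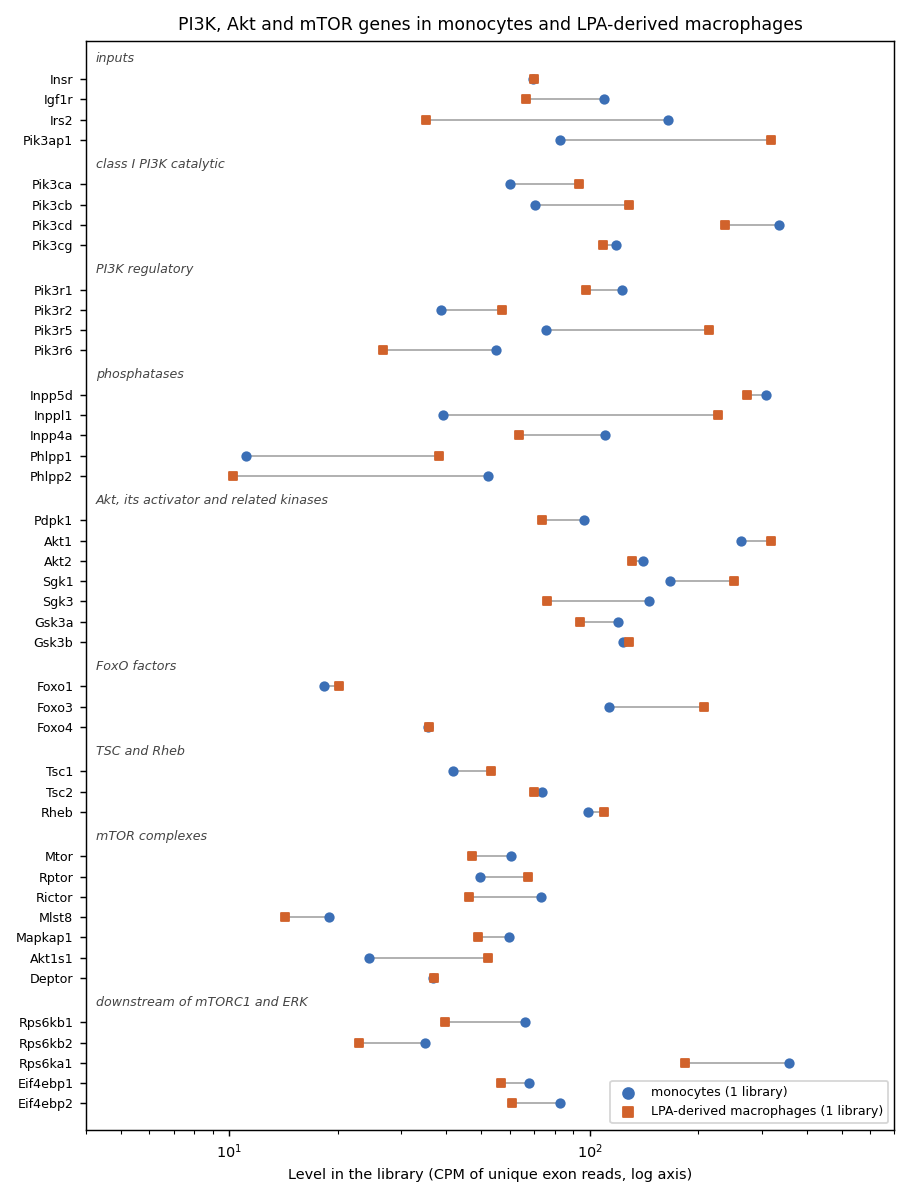
Level of each of the 42 genes past 5 CPM, grouped by role, as CPM of unique exon reads on a log axis; circles are the monocyte library, squares the macrophage library, and a line joins the values of a gene. The longest lines belong to Inppl1, Phlpp2, Irs2, Pik3ap1 and Phlpp1, while Insr, Foxo4 and Deptor nearly coincide.

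At the receptors, the insulin receptor gene Insr stood at 69.5 and 70.1 CPM, a ratio of 1.01 (0.923 to 1.10), and its sign changed between alternatives. Igf1r, the gene of the receptor for insulin-like growth factor 1, was at 109.3 and 66.4 CPM, 1.65-fold lower in macrophages (1.52 to 1.78). Per exon length, Insr therefore supplied 44.7% of the reads of this receptor pair in monocytes (42.6 to 46.9%) and 57.3% in macrophages (55.3 to 59.3%).

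The adaptors of the pathway differed in opposite directions. Irs2 encodes the docking protein that couples insulin and insulin-like growth factor receptors, and in myeloid cells the interleukin 4 receptor, to PI3K. It had 2056 reads (164.8 CPM) and 588 reads (35.2 CPM), 4.69-fold lower (4.28 to 5.15), and the authors' deposited table gives a signed fold change of -3.72. Irs1, the other docking protein, had 8 and 26 reads and was under 5 CPM in both, so Irs2 held over 97.0% of the pair's reads per length in each library. Pik3ap1 encodes BCAP, an adaptor that brings PI3K to B cell and Toll-like receptors. It had 1034 reads (82.9 CPM) and 5322 reads (318.2 CPM), 3.84-fold higher (3.59 to 4.11). The authors' deposited table has 2.90-fold, and with intron reads counted as well the log2 ratio was 1.37. Ordered by the authors' RPKM (reads scaled by exon length and library total), Pik3ap1 moved from place 9 of 42 in monocytes (26.6 RPKM) to place 1 in macrophages (107.2 RPKM), and Irs2 from place 10 (21.9 RPKM) to place 32 (4.90 RPKM). Levels per length rest on the exon length in the table. It equals that of GENCODE M21 for 28 of the 42 genes and is shorter for 14. Among the 14 are Pik3ap1 (2615 against 5572 bases), Rictor (9311 against 16930 bases) and Inppl1 (4981 against 6399 bases). Eif4ebp2 (1786 against 5784 bases), Eif4ebp1 (981 against 2196 bases) and Rps6kb2 (2445 against 5167 bases) are also among them.

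The promoters of this adaptor pair are shown because the genes parted by the widest margin among the inputs and each holds the E-box CACGTG, in capitals beside the GC box GGGCGG (or CCGCCC on the other strand). The sequences run 5′ to 3′ around a RefSeq start site, with 50 bases after it.
Irs2 (GRCm38, chr8:11008880-11009179, minus strand): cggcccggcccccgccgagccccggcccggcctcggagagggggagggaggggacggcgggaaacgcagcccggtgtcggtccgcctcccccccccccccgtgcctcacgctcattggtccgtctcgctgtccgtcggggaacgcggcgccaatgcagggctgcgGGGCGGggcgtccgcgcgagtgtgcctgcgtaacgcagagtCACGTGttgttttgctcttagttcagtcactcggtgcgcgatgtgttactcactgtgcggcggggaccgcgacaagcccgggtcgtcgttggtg
Pik3ap1 (GRCm38, chr19:41385053-41385352, minus strand): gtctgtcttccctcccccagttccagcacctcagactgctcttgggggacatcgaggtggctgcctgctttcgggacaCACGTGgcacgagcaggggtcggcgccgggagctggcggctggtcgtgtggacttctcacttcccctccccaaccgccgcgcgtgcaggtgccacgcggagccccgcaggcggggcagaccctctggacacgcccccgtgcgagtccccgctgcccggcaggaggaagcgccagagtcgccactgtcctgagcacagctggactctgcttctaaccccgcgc
The Irs2 stretch has 1 E-box and 1 GC box, and the Pik3ap1 stretch 1 E-box and 0 GC boxes. An E-box was in 5 of 60 promoters of these genes (8.33%) and in 7.15% of 32851 mouse promoters.

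Among the catalytic subunits of class I PI3K, the summed level was alike, at 73.3 RPKM in monocytes and 72.3 RPKM in macrophages, but its make-up was not. Pik3cd, the gene of the leukocyte form p110 delta, led in both libraries, with 334.6 and 237.2 CPM, 1.41-fold lower in macrophages (1.35 to 1.47). Its share of the summed RPKM went from 61.2% to 46.2%. The genes of the broadly expressed forms were higher: Pik3cb (p110 beta) stood at 70.6 and 128.4 CPM, 1.82-fold higher (1.68 to 1.97), and Pik3ca (p110 alpha) at 60.05 and 93.2 CPM, 1.55-fold higher (1.42 to 1.70). The share of Pik3cb went from 11.2% to 21.7% and that of Pik3ca from 7.57% to 12.5%. Pik3cg, the gene of p110 gamma, stood at 118.3 and 108.9 CPM, with a share of 19.96% and 19.6%, and the sign of its ratio changed between scalings. By junction reads its share was 10.8% and 11.1%. Its exon length is also among the shorter ones (6786 against 8426 bases in GENCODE M21).

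The regulatory subunits of PI3K gamma stood in opposite order. Pik3r5 encodes p101, which links p110 gamma to the beta-gamma subunits of G proteins, and Pik3r6 encodes p84, the alternative partner that depends on Ras. Pik3r5 had 945 reads (75.8 CPM) and 3592 reads (214.8 CPM), 2.83-fold higher (2.64 to 3.05). Pik3r6 had 687 reads (55.1 CPM) and 447 reads (26.7 CPM), 2.06-fold lower (1.83 to 2.33), a difference that is under 2-fold after centring and -1.45 as the signed fold change in the authors' deposited table. Per exon length, Pik3r5 made up 47.3% of the pair in monocytes (44.8 to 49.8%) and 84.0% in macrophages (82.6 to 85.3%), and by reads across exon junctions 48.5% and 85.1%. The genes lie head to tail on chromosome 11 of GRCm38, both on the plus strand, Pik3r5 at 68432121 to 68497849 and Pik3r6 at 68503019 to 68552698. The gap between them is 5169 bases, with 0 annotated genes inside it. Of the class IA regulatory genes, Pik3r1 (p85 alpha) was at 122.7 and 97.4 CPM, 1.26-fold lower (1.17 to 1.35), and Pik3r2 (p85 beta) at 38.6 and 57.1 CPM, 1.48-fold higher (1.32 to 1.65). Their shares of the class IA sum per length were 56.6% and 43.0% in monocytes, against 40.8% and 57.7% in macrophages. Pik3r3 (p55 gamma) had 5 and 32 reads and was under the floor.

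The promoter of Pik3r5 is shown as that of the regulatory subunit that was higher, with GC boxes in capitals.
Pik3r5 (GRCm38, chr11:68431875-68432174, plus strand): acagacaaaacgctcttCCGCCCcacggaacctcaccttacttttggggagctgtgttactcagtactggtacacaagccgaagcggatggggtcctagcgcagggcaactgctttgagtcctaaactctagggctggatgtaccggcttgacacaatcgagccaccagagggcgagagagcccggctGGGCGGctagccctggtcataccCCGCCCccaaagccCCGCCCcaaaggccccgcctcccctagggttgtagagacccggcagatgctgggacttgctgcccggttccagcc
This stretch has 4 GC boxes and no match to the other motifs searched.

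Phosphatase genes were among those that differed most in each direction. Inppl1 encodes SHIP2 and Inpp5d encodes SHIP1, inositol 5-phosphatases that act on the PI3K product, SHIP1 being the form typical of blood cells. Inppl1 (chromosome 7, 101822632 to 101838076) had 489 reads (39.2 CPM) and 3798 reads (227.1 CPM), 5.79-fold higher (5.27 to 6.38). The authors' deposited table has 7.01-fold. Inpp5d (chromosome 1, 87620312 to 87720507) was high in both, at 309.0 and 272.5 CPM, a ratio whose sign changed between scalings. Per exon length SHIP2 transcripts were 16.2% of the SHIP pair in monocytes (15.0 to 17.5%) and 56.0% in macrophages (54.9 to 57.0%), while the pair together went from 40.7 to 71.7 RPKM. Without scaling by length Inppl1 held 11.3% and 45.5% of the exon reads of the pair, and 12.5% and 49.3% of its junction reads, so Inppl1 passed Inpp5d in macrophages only per exon length, which for Inppl1 is the shorter one of the table. Phox2a and Gm10602, which overlap 20.3% of the annotated Inppl1 exons on the opposite strand, had at most 2 reads in either library.

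Phlpp1 and Phlpp2 encode related protein phosphatases that take an activating phosphate off Akt, and they stood in opposite order in the libraries. Phlpp1 (chromosome 1, 106171752 to 106394250) had 139 reads (11.1 CPM) and 639 reads (38.2 CPM), 3.43-fold higher (2.85 to 4.15), but under 2-fold when intron reads were counted as well (log2 ratio 0.80). For Phlpp1 the authors' deposited table has 2.11-fold. Phlpp2 (chromosome 8, 109868542 to 109944671) had 650 reads (52.1 CPM) and 171 reads (10.2 CPM), 5.10-fold lower (4.30 to 6.07), and -4.28 in the authors' deposited table. The share of Phlpp1 in the pair per exon length went from 21.1% (18.1 to 24.3%) to 82.4% (79.8 to 84.8%), and by junction reads from 22.7% to 88.4%. Their sum was 6.57 and 6.05 RPKM, with the opposite member in front. Inpp4a, a 4-phosphatase of the next lipid in the chain, was at 110.0 and 63.7 CPM, 1.73-fold lower (1.59 to 1.87). Inpp4b, its relative, had 39 and 42 reads and was under the floor in both libraries.

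The SHIP and PHLPP promoters are shown side by side because each pair held 1 gene that differed strongly and a related one that did not or that went the other way. Capitals mark GC boxes and, in Inpp5d, the ETS-type motif AGGAAGT, searched on both strands. The longer motif GAGGAAGT contains it, so every match of the longer is also one of the shorter.
Inpp5d (GRCm38, chr1:87620062-87620361, plus strand): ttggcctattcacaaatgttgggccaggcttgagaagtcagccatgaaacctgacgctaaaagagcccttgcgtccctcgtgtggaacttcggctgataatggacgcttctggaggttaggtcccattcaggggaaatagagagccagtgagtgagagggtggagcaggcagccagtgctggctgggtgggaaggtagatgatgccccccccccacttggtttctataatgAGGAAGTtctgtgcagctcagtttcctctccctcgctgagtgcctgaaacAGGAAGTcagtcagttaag
Inppl1 (GRCm38, chr7:101837775-101838074, minus strand): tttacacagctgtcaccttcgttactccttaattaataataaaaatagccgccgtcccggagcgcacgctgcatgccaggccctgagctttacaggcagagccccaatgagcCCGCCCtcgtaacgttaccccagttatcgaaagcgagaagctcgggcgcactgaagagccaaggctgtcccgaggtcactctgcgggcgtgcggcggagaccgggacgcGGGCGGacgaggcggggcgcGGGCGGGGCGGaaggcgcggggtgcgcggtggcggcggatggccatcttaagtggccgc
Phlpp1 (GRCm38, chr1:106171619-106171918, plus strand): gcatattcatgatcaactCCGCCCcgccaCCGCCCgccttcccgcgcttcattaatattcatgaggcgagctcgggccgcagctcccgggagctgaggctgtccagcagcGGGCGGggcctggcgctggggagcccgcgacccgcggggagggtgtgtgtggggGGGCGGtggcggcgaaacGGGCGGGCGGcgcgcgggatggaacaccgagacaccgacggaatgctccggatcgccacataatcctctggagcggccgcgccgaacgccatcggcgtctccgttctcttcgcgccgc
Phlpp2 (GRCm38, chr8:109868353-109868652, plus strand): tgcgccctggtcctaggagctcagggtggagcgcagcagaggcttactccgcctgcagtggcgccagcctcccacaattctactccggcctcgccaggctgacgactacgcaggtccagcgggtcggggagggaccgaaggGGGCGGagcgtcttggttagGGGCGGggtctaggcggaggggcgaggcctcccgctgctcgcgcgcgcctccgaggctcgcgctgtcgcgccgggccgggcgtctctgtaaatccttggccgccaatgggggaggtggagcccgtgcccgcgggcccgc
The Inpp5d stretch has 2 AGGAAGT matches and 0 GC boxes, whereas those of Inppl1, Phlpp1 and Phlpp2 have 4, 6 and 2 GC boxes and 0 AGGAAGT matches. Among the promoters of the 38 genes that RefSeq (build GRCm38.p6) matched, AGGAAGT was in 4 of 60 (6.67%, in Inpp5d, Inpp4a and Pik3cg), against 9.35% of all, and GAGGAAGT in 3, against 3.20%. The GC box was in 36 of 60 (60.0%), against 35.7% of all, where the median GC content was 60.2% in these promoters and 52.7% in all. The FoxO-type motif TGTTTAC was in 4 (6.67%), against 3.65%, and the AP-1 type motif TGACTCA in 1 (1.67%), against 5.20%. Of the 60 windows, 8 overlap another of the same gene and can count a site again; by gene, the GC box was in 29 of 38 (76.3%), against 38.2% of 27025 genes. Motifs were searched on both strands, and a match is a description of letters, not of binding.

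**Figure D2:**
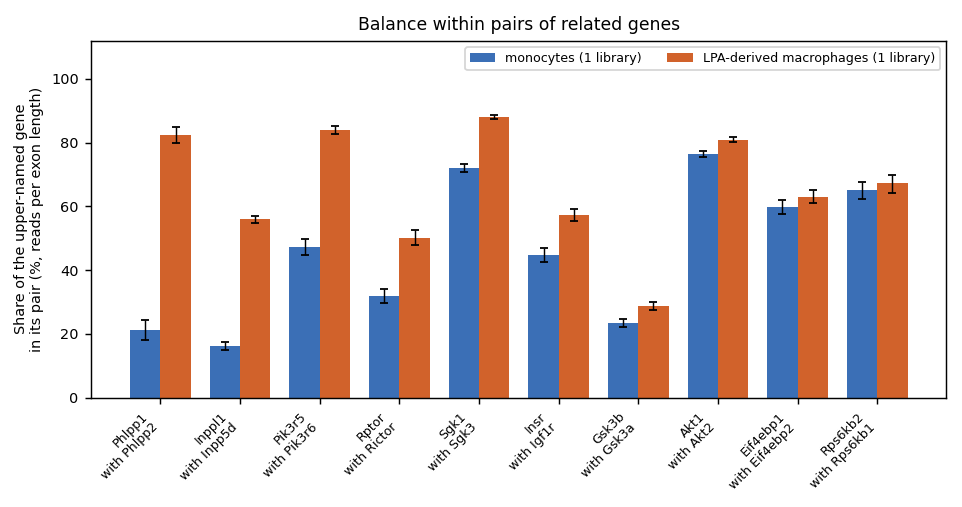
Share of the upper-named gene in its pair, in percent of reads per exon length, for the 10 pairs of related genes with both members past 5 CPM; bars are the monocyte and the macrophage library and error bars are 95% counting intervals. Each pair is drawn so that the macrophage share is the higher one; the PHLPP, SHIP and PI3K gamma regulatory pairs differ most, and the Akt, 4E-BP and S6 kinase pairs least. By junction reads, not drawn, the GSK3 and 4E-BP pairs went the other way. The 4E-BP and S6 kinase shares drawn rest on the shorter exon lengths of Eif4ebp1, Eif4ebp2 and Rps6kb2. Rps6kb2 held 65.1% and 67.2% of its pair per exon length, but 45.1% and 52.7% by junction reads.

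The Akt kinases and their activator differed little. Akt1 was at 262.4 and 317.8 CPM, 1.21-fold higher (1.16 to 1.27), and Akt2 at 140.3 and 130.8 CPM, with a sign that changed between scalings. Akt1 held 76.5% of this pair per exon length in monocytes (75.4 to 77.5%) and 80.9% in macrophages (80.1 to 81.6%), and stood at place 3 and place 2 of the 42 genes by RPKM. Pdpk1, the gene of PDK1, was at 96.2 and 73.8 CPM, 1.30-fold lower (1.20 to 1.41). The SGK kinases, relatives of Akt that the same inputs activate, moved apart: Sgk1 was at 166.9 and 251.8 CPM, 1.51-fold higher (1.43 to 1.59), and Sgk3 at 145.8 and 75.9 CPM, 1.92-fold lower (1.79 to 2.07). The share of Sgk1 in that pair went from 72.0% to 88.2% per exon length and from 51.0% to 74.4% by junction reads. Of the GSK3 genes, whose kinases Akt inhibits, Gsk3a was at 119.5 and 94.0 CPM and Gsk3b at 123.5 and 128.1 CPM. The share of Gsk3b went from 23.4% to 28.7% per exon length but from 24.8% to 20.9% by junction reads. This was 1 of 2 among the 10 pairs whose direction turned with junction reads, the other being the 4E-BP pair. There the share of Eif4ebp1 went from 59.9% to 63.0% per exon length and from 69.0% to 67.5% by junction reads. Without scaling by length Eif4ebp1 held 45.1% and 48.3% of the exon reads of the pair. Both exon lengths of this pair are the shorter ones given above.

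Of the FoxO factors, which Akt keeps out of the nucleus, Foxo3 differed most. It had 1412 reads (113.2 CPM) and 3460 reads (206.9 CPM), 1.83-fold higher (1.72 to 1.95). Foxo1 stood at 18.4 and 20.1 CPM and Foxo4 at 35.6 and 35.7 CPM, ratios of 1.09 (0.922 to 1.30) and 1.00 (0.885 to 1.14). Per exon length Foxo3 was the leading FoxO gene in both libraries, with 54.8% and 68.5% of the FoxO sum. Its junction reads did not differ in the same way: they were at 10.2 and 10.04 CPM (127 and 168 reads), a ratio of 0.986 (0.779 to 1.25), and their share of the FoxO junction reads went from 70.2% to 64.4%.

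Of the TSC and mTOR core, only Akt1s1 passed 2-fold. Tsc1 was at 41.6 and 53.1 CPM, 1.28-fold higher (1.14 to 1.42), Tsc2 at 73.8 and 70.2 CPM and Rheb at 98.9 and 109.3 CPM, both of the latter with signs that changed between alternatives. Mtor, the kinase gene, was at 60.3 and 47.1 CPM, 1.28-fold lower (1.16 to 1.42). Rptor, whose product Raptor presents substrates to the first mTOR complex, was at 49.5 and 67.2 CPM, 1.36-fold higher (1.23 to 1.501). Rictor, the scaffold of the second complex, was at 73.3 and 46.1 CPM, 1.59-fold lower (1.44 to 1.75). Per exon length the share of Rptor among these scaffolds went from 31.8% (29.6 to 34.1%) to 50.2% (47.9 to 52.5%), and by junction reads from 45.6% to 73.8%; the former rests on the shorter Rictor length of the table. Mlst8 and Mapkap1, further subunits, were at 18.9 and 14.3 CPM and at 59.7 and 49.0 CPM. Deptor, an inhibitor that binds mTOR, was at 36.8 and 36.9 CPM. Akt1s1 encodes PRAS40, an inhibitor of the Raptor complex that Akt phosphorylates, and had 304 reads (24.4 CPM) and 871 reads (52.1 CPM), 2.14-fold higher (1.87 to 2.44). Tbc1d17, which overlaps Akt1s1 on the opposite strand over 5.27% of its exon bases together with a microRNA gene, was at 30.4 and 59.1 CPM. Reads of such overlapping genes cannot be told apart unless strand was used, which is unstated.

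All 5 measured genes downstream of the first mTOR complex and of ERK were lower in the macrophage library, none by 2-fold, where 60.3% of all genes past the floor were lower. With the authors' normalized values Eif4ebp1 was slightly higher (log2 ratio 0.052). Rps6ka1, the gene of the ERK-activated kinase RSK1 and at place 1 by RPKM in monocytes, was at 357.2 and 183.9 CPM, 1.94-fold lower (1.85 to 2.03). The S6 kinase gene Rps6kb1 was at 66.2 and 39.6 CPM, 1.67-fold lower (1.51 to 1.85), and Rps6kb2 at 34.95 and 23.0 CPM, 1.52-fold lower (1.32 to 1.75). Rps6kb2 shares 23.7% of its exon bases with Coro1b and Ptprcap on the other strand, of which Coro1b was at 366.6 and 411.0 CPM and Ptprcap at 19.4 and 1.38 CPM, and the part of their reads in the Rps6kb2 values was not tested. The genes of the translation repressors that mTOR inactivates were at 67.7 and 56.9 CPM for Eif4ebp1 and 82.4 and 60.7 CPM for Eif4ebp2, and Eif4ebp1 changed sign between alternatives. For Eif4ebp3, another of these repressors, 0 reads were counted in either library, which allows up to 0.241 CPM in monocytes and 0.179 CPM in macrophages, and 67.3% of its exon bases are shared with another annotated gene. The median log2 ratio of these 5 genes was -0.59, the lowest of the 9 roles, and -0.35 relative to the median of all genes.

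**Figure D3:**
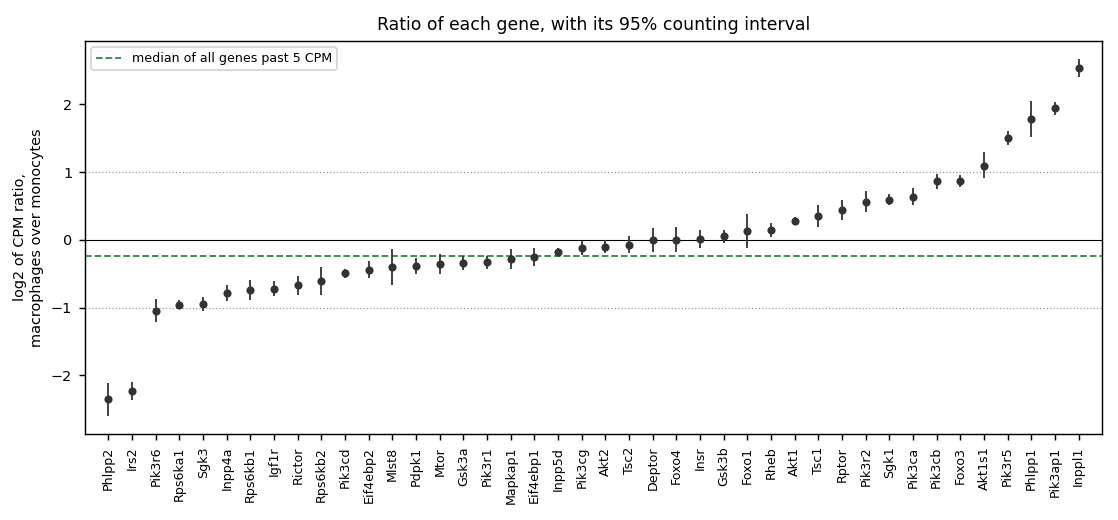
Log2 of the CPM ratio of macrophages over monocytes for the 42 genes past 5 CPM, in ascending order, with 95% counting intervals; dotted lines mark 2-fold, and the dashed line is the median of all genes. Most genes lie between the dotted lines, and Phlpp2, Irs2, Phlpp1, Pik3ap1 and Inppl1 lie farthest out.

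Reads inside a gene but outside its annotated exons, called intron reads here, gave a readout of the same genes that did not enter the levels above. Intron reads were 14.1% of gene reads in the monocyte and 9.90% in the macrophage library. Over 5657 genes with at least 50 intron reads in each, the median log2 ratio of intron CPM was -0.74, with 20.1% of them above 0, and over the 34 such genes of the pathway it was -0.51, with 8 above 0 (23.5%). Pik3r5 went the same way in both kinds of read, with intron reads at 13.6 and 34.3 CPM, 2.52-fold higher (2.12 to 3.01). So did Inppl1, which had 41 and 251 intron reads, 4.57-fold higher (3.27 to 6.52), and Phlpp2, which had 114 and 30, 5.10-fold lower (3.38 to 7.89). Each of them had under 50 intron reads in 1 library, so neither is among the 34 genes. For Phlpp1 and Foxo3 intron reads were lower and exon reads higher on this scale. For Pik3ap1 exon reads were higher and intron reads nearly alike. Relative to the -0.74 of all genes, however, the log2 intron ratios of Pik3ap1 (-0.09) and Phlpp1 (-0.59) lay above the median. That of Foxo3 (-1.25) lay below it. Phlpp1 intron reads were at 18.8 and 12.5 CPM, 1.51-fold lower (1.25 to 1.83), where exon reads were 3.43-fold higher. Those of Pik3ap1 were at 73.8 and 69.6 CPM, a ratio of 0.942 (0.864 to 1.03), beside exon reads 3.84-fold higher. Foxo3 intron reads were at 20.6 and 8.67 CPM, 2.38-fold lower (1.93 to 2.93). The Pik3ap1 and Inppl1 exon lengths in the table are the shorter ones given above. The part of exons annotated only in GENCODE M21 in their intron reads was not tested. The opposite was seen for Pik3cd and Rps6ka1, whose intron reads were 1.88-fold (1.60 to 2.21) and 1.42-fold (1.15 to 1.76) higher while their exon reads were lower.

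**Figure D4:**
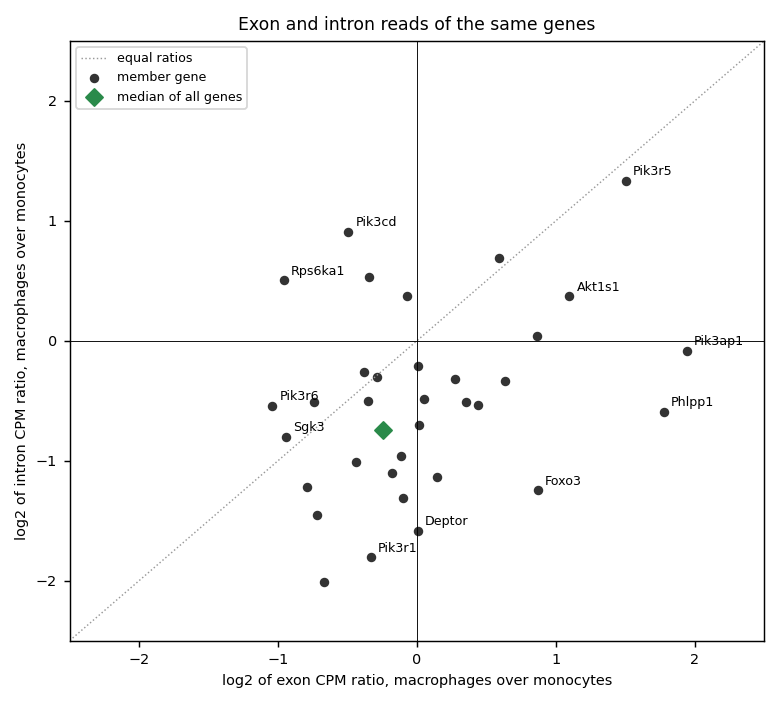
Log2 ratio of intron CPM against log2 ratio of exon CPM, macrophages over monocytes, for the 34 pathway genes with at least 50 intron reads in each library; the diamond is the median of all such genes and the dotted line marks equal ratios. Phlpp1, Pik3ap1 and Foxo3 lie far below the line, Pik3cd and Rps6ka1 above it, and Pik3r5 close to it.

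Further genes of the pathway were counted from 6 lists, and the shares past 2-fold are to be read against the 13.8% higher and 19.9% lower of all genes. Unlike the 42 genes above, not all genes of these lists reached 5 CPM in both libraries. Among those under it were Rragd in monocytes (1.44 CPM), and Pip5k1b (4.78 CPM) and Prr5 (0.478 CPM) in macrophages. Of 29 further lipid kinases and phosphatases past the floor, 2 were higher and 2 lower (median log2 ratio 0.01). Synj2, an inositol 5-phosphatase gene, was 3.28-fold higher (2.81 to 3.85) and Pi4k2a, a phosphatidylinositol 4-kinase gene, 2.72-fold higher (2.51 to 2.94). Pik3ip1, whose product restrains PI3K, was at 22.1 and 5.14 CPM, 4.30-fold lower (3.37 to 5.55), and the kinase gene Pip5k1b was 4.27-fold lower (3.31 to 5.57). Of 29 receptor-proximal adaptors and effectors, 4 were higher and 2 lower (median -0.08). Dok2, an adaptor that dampens tyrosine kinase signalling, was 4.56-fold higher (3.98 to 5.23), Gab1 2.46-fold (2.02 to 2.999), Cyth4 2.37-fold (2.27 to 2.47) and Dok1 2.29-fold (2.08 to 2.53). The 2 lower, named here in addition, were Plcg2 (2.22-fold) and Cyth1 (2.02-fold).

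Of 29 genes that bring amino acid and energy signals to mTOR, 5 were higher and 4 lower (median -0.12). Those named by size of ratio were all higher. The 4 lower, named here in addition, were Ddit4 (2.14-fold), Sesn3 (2.13-fold), Depdc5 (2.12-fold) and Prkag1 (2.03-fold). Rragd, the gene of the GTPase RagD that anchors mTOR to lysosomes, had 18 and 299 reads, 12.4-fold higher (7.70 to 21.2), and Fnip2, a partner of folliculin at the Rag GTPases, 221 and 1732 reads, 5.84-fold higher (5.08 to 6.75). Sesn1, the gene of a sestrin, a stress protein that restrains mTOR, stood at 26.5 and 194.0 CPM, 7.33-fold higher (6.55 to 8.24), and Gatsl2 (also called Castor2) at 11.5 and 39.0 CPM, 3.38-fold higher (2.82 to 4.08). Of 24 further mTOR complex factors and substrates, 1 was higher and 4 were lower (median -0.18). Lpin1, named here in addition, was the higher gene (2.08-fold). Prr5, a subunit of the Rictor complex, had 92 and 8 reads, 15.4-fold lower (7.51 to 36.8), and Rps6ka5, Pdcd4 and Eef2k were 3.83-fold, 2.47-fold and 2.34-fold lower.

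Of 20 further Akt substrates and modulators, 0 were higher and 5 were lower (median -0.72), led by Trib1 (4.64-fold, 4.36 to 4.94), Hsp90aa1 (2.70-fold), Cdkn1a (2.31-fold) and Ppp2r5a (2.31-fold). Of 18 genes known as FoxO targets other than Irs2 and Insr, 12 passed 2-fold (66.7%), 6 in each direction (median -0.35). Of all genes past the floor, 33.8% passed 2-fold in either direction. Of the 18 targets, 15 reached 5 CPM in both libraries. Il7r (4.33 CPM), S1pr1 (4.81 CPM) and Fbxo32 (4.25 CPM) were under it in monocytes and are counted among those higher. Il7r had 54 and 7644 reads, 105.6-fold higher (80.8 to 140.6), S1pr1 was 8.85-fold higher (6.79 to 11.7), and Klf2 stood at 749.9 and 107.4 CPM, 6.98-fold lower (6.64 to 7.35). Sesn1, Sesn3, Trib1 and Pik3ip1, given above, are also on this list and count in both of their lists, as does Cdkn1b.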

How the data were processed

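RNA sequencing of 1 monocyte and 1 macrophage library was analysed from 1 table the authors deposited. Per the file headers it holds counts of unique and total reads per gene in exons, introns and across exon junctions, the exon length, and RPKM. The authors' RPKM equals exon reads divided by exon length and 1 total per library, and it was used only to order genes within a library and to sum related genes. The normalized signal the authors deposited has the same sorted values in both libraries, and their signed fold change (a score, minus where monocytes are higher) comes from it, per the file headers. The log2 ratio of this signal was 1.05 for Phlpp1, against 0.80 by gene reads with introns and 1.69 by exon reads. For Pik3ap1 the same values were 1.53, 1.37 and 1.93. The signal can therefore differ from exon CPM in read class as well as in scaling, and which reads it rests on was not tested. The deposited FDR-corrected p-value, from a test of 1 library against 1, was not used. The labels state neither the aligner nor the strand setting. Per the submitters' processing notes the build is mm9, but 40736 of 47224 gene identifiers (86.3%) have the GENCODE M21 coordinates of GRCm38 once starts are counted from 1, among them 37 of the 46 genes described. Coordinates are therefore given 1-based as GRCm38.

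Unique exon reads were scaled to CPM with Python 3.11.15 and pandas 2.3.3, and ratios are log2(CPM + 1) of macrophages minus monocytes, over genes that reached 5 CPM in either library (62.4 reads in monocytes, 83.6 in macrophages). Folds are plain CPM ratios with exact (Clopper-Pearson) 95% intervals computed with SciPy 1.17.1. The computation was checked on simulated counts that held counting error only. That check therefore does not cover PCR copies or the spread between preparations. A count of 0 allows up to 3 reads. Samples were grouped by title. The genes, roles and lists were chosen with earlier results of these data known. Genes were given in full at an absolute log2 ratio of 0.5 or more, as were Akt1, Akt2, Mtor, Rptor, Rictor, Tsc1, Tsc2, Rheb, Rps6kb1 and Pik3ca, and from each further list the 4 with the largest absolute ratio; the pairs of related genes were set after the values were seen. Protein sequences were not used here. Alternatives were other scalings (edgeR 4.0.16 for the trimmed mean), read classes, pseudocounts, floors and a threshold of 1.5-fold.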

Additional observations from a re-analysis of the deposited data

How the results depend on the processing

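Under all alternatives but the threshold of 1.5-fold, 4 to 7 genes were at least 2-fold higher and 2 to 3 lower. Of all genes, 10.6% to 17.4% were higher and 14.6% to 20.8% lower under the same alternatives. At 1.5-fold 9 were higher and 10 lower, against 20.8% and 33.5% of all genes. The median log2 ratio of the genes was -0.11 as reported. It was 0.12 when centred on all genes and 0.10 with the trimmed mean of M values. Without the 20 highest genes in the totals it was 0.058, and with the authors' normalized values 0.066. Each of these alternatives also raised the median of all genes, from -0.23 to between -0.07 and 0. In this order 7, 7, 7 and 6 genes were then higher, against 17.4%, 16.8%, 16.2% and 15.5% of all genes. As reported, 13.8% of all genes were higher. Total exon reads equal unique exon reads here and changed nothing. Of the 42 genes, 33 kept their sign under the 11 alternatives, and Akt2, Deptor, Eif4ebp1, Inpp5d, Insr, Mapkap1, Pik3cg, Rheb and Tsc2 did not. Only the other scalings, the authors' normalized values and gene reads with introns could turn a sign. Total exon reads, floors and the threshold left each ratio as it was, and a pseudocount cannot turn its sign. Inppl1, Pik3ap1, Pik3r5, Phlpp2 and Irs2 stayed past 2-fold under each alternative that changed the ratios. Phlpp1 did so under all of these but the count of gene reads with introns, and Akt1s1 under all but the pseudocount of 5. Pik3r6 was under 2-fold with each other scaling, the authors' normalized values included, with gene reads and with a pseudocount of 5. Junction reads, and exon shares without length scaling, were added after seeing the data. No paired analysis was possible because each group has 1 library. Irs1, Pik3r3, Inpp4b and Eif4ebp3 were under 5 CPM in both libraries, and their low read counts limit what can be said of them.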
